A study of Mus musculus with 31 samples.

Results

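Total RNA of mouse neocortex labelled HuR cKO was compared between the day of birth (P0) and embryonic day 13 (E13). HuR is the RNA-binding protein encoded by Elavl1, and cKO stands for conditional knockout. The comparison took the 3 P0 and 2 E13 total RNA libraries of that genotype, 5 of the 31 libraries of the study, and covered all genes. Every library came from dissected neocortex of mice of 1 of 2 genotypes, WT or HuR cKO, at 1 of the 2 ages. Tissue was lysed in a detergent buffer with cycloheximide, which holds ribosomes on mRNA, and total RNA here means poly(A) RNA of that lysate before the sucrose gradient from which the monosome and polysome pools of the study were taken. The labels name neither the Cre driver nor the deleted part of Elavl1, and they do not say whether a library is 1 animal or a pool. The p-values therefore measure the spread between libraries, which may be technical. For the age difference that spread was estimated from all 16 libraries labelled cKO, with the monosome and polysome pools included. Columns of the deposited table are numbered from 0 and sample titles from 1, so the libraries are called E13 c0 and c1 and P0 c0, c1 and c2, and values are given in that order.

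The neocortex is built from radial glia, which line the ventricle and divide to give rise to intermediate progenitors and neurons. Deep-layer neurons are born before upper-layer neurons, GABAergic interneurons migrate in from the ventral forebrain, and glia are produced last. HuR belongs to the Elavl (Hu) family, which binds U-rich and AU-rich elements of mRNAs and affects their stability and translation. Elavl1 is expressed widely, whereas Elavl2, Elavl3 and Elavl4 are known as neuronal members.

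Levels are FPKM, fragments per kilobase of transcript scaled to library size, as deposited. A difference is a log2 fold change, the mean of log2(FPKM + 1) at P0 minus that at E13, with its standard error (SE), and understates the change of genes near 0. A gene is said to have risen or fallen where limma gave an adjusted p under 0.05 over all 12302 genes tested.

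The targeted gene was read first. Elavl1 measured 55.4 and 42.5 FPKM at E13 and 17.8, 25.1 and 28.5 FPKM at P0. Both E13 libraries exceeded all 3 P0 libraries, and Elavl1 fell by 1.02 (SE 0.23, adjusted p = 0.00128). In WT total RNA, whose table was normalized separately, Elavl1 measured 28.5 and 39.5 FPKM at E13 and 13.5, 15.2 and 15.2 FPKM at P0. Its level in total RNA labelled cKO was thus not below that in WT at either age. In polysome RNA at E13 it was lower under the cKO label (28.3, 29.9 and 30.0 FPKM) than in WT (60.6 and 42.4 FPKM). In monosome RNA at E13 it was higher (83.9, 80.0 and 82.0 FPKM, against 42.4 and 13.5 FPKM in WT). With the deleted part unnamed, the mRNA level does not check the genotype labels, so the libraries are described by their label throughout.

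The 5 libraries had FPKM sums between 431300 and 737386, with 14441 to 16625 genes detected above 0. Sequencing depth is unknown, as FPKM values were the only ones used. Across genes, Pearson's r of log2(FPKM + 1) was 0.97 between the 2 E13 libraries and between P0 c1 and c2, 0.93 and 0.95 between P0 c0 and those 2, and 0.68 to 0.80 between ages. P0 c0 stood apart. Of 8768 genes with a mean of at least 5 FPKM, 541 were higher and 367 lower in P0 c0 by more than 1 on the log2 scale than in the mean of c1 and c2, while 185 differed that much between c1 and c2. Members of the small and large ribosomal subunits were lower in P0 c0 (medians of -1.18 and -1.10), and those of endothelium (9 genes, 1.37), axon guidance (1.24) and glutamate receptors (11 genes, 1.09) were higher. The type IV collagens of vessel walls, Col4a1 and Col4a2, were 10.9 and 11.6 times as high there, and the endoplasmic reticulum chaperones Hspa5 and Hsp90b1 were 4.43 and 4.67 times as high. The genes higher in P0 c0 had a median longest transcript of 5366 bases (499 of 541 with a length), against 3063 bases over all of these genes (7866 of 8768). Those lower in P0 c0 had a median of 1315 bases (283 of 367 with a length). The part of transcript length in the results was not tested. Counts without P0 c0 are given beside a number of the lists. Of tissue markers, the 15 Hox genes listed did not exceed 0.13 FPKM in any library.

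**Figure D1:**
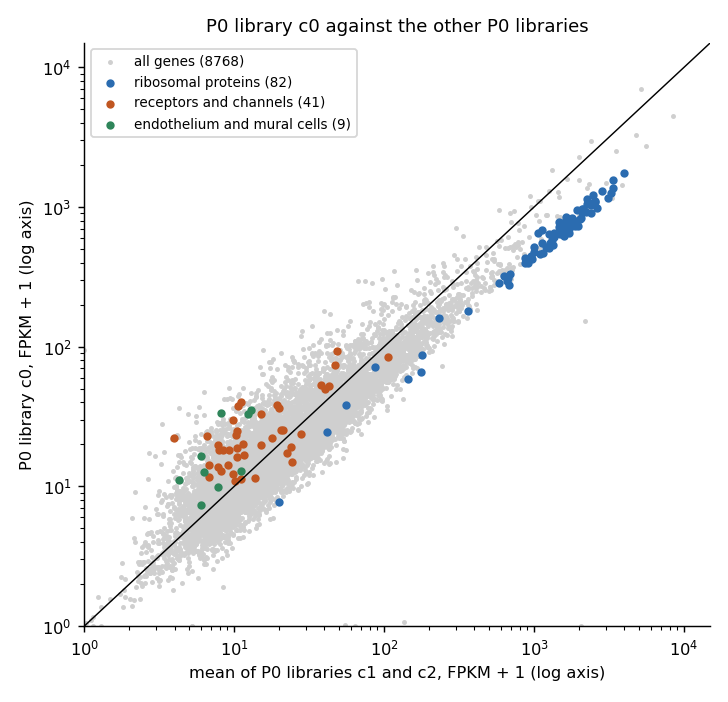
Each point is 1 of 8768 genes at P0, on log axes of FPKM + 1. The x axis has the mean FPKM of libraries c1 and c2 and the y axis library c0. Ribosomal protein genes lie mostly below the diagonal, and receptor, channel and endothelial genes mostly above it. For ribosomal proteins, log2(FPKM + 1) in c0 minus the mean of that in c1 and c2 had medians of -1.18 (small subunit) and -1.10 (large subunit).

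Between E13 and P0, 3417 genes rose (27.8% of those tested) and 2850 fell (23.2%), so 50.9% changed, around a median of all genes of 0.04. More genes made large rises than large falls. Of the genes that rose, 999 did so by more than 2 on the log2 scale and 103 by more than 4, against 468 and 19 of those that fell. Values of the 2 ages did not overlap in either direction for 34.5% (higher) and 30.3% (lower) of genes tested. Without P0 c0, 5780 of 12233 genes changed (47.2%, with 25.8% higher and 21.4% lower), of which 5438 were also called with it, all in the same direction.

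The largest rise was that of Ptgds, an enzyme of prostaglandin D2 synthesis made by the meninges, and the next were those of neuronal genes. Ptgds measured 0 and 0.536 FPKM at E13 and 146, 197 and 119 FPKM at P0 and rose by 6.94 (SE 0.53, adjusted p = 9.62e-09). Camk2b, the β subunit of the synaptic kinase CaMKII (chromosome 11, 5969629 to 6066357, GRCm38.p6), measured 0.369 and 0.722 FPKM at E13 and 207, 163 and 157 FPKM at P0 and rose by 6.84 (SE 0.52, adjusted p = 9.2e-09). For both genes every P0 library exceeded 100 FPKM and no E13 library reached 1 FPKM. The microtubule-associated protein tau, Mapt, rose by 6.01 (SE 0.45, adjusted p = 6.79e-09), and the dynein intermediate chain Dync1i1 rose by 6.14 (SE 0.39, adjusted p = 1.39e-09). The neuropeptide gene Cck, the GPI-anchored neuronal surface gene Thy1, the calcium sensor gene Vsnl1, the receptor gene Gpr12 and Scrg1 were listed at 0 in both E13 libraries. Their P0 ranges were 41.4 to 82.1 FPKM for Cck, 30.6 to 51.1 for Vsnl1, 15.5 to 38.8 for Thy1, 12.8 to 15 for Gpr12 and 11.1 to 13.6 for Scrg1, and each rose.

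Largest falls were those of embryonic globins, described with the other blood genes, and then of Hmga2, a chromatin protein of early progenitors (chromosome 10, 120361268 to 120476469, GRCm38.p6). Hmga2 measured 106 and 145 FPKM at E13 and 0.102, 0.106 and 0.117 FPKM at P0 and fell by 6.82 (SE 0.31, adjusted p = 1.51e-10), so that it passed from the level of an abundant transcript to near 0 in each P0 library. Crabp2, which carries retinoic acid, measured 334 and 203 FPKM at E13 and 3.11, 7.51 and 4.31 FPKM at P0 and fell by 5.52 (SE 0.34, adjusted p = 9.03e-10). Rspo1, a secreted enhancer of Wnt signalling, measured 66 and 52.6 FPKM at E13 and 0.533, 1.38 and 0.892 FPKM at P0 and fell by 4.98 (SE 0.39, adjusted p = 1.08e-08). Tead2, a transcription factor of the Hippo pathway, fell by 4.37 (SE 0.30, adjusted p = 2.62e-09), and Gmnn, the gene of geminin, a regulator of DNA replication, fell by 4.13 (SE 0.34, adjusted p = 2.24e-08). Hsd3b6, a steroid dehydrogenase gene, measured 18.3 and 20.1 FPKM at E13 and was listed at 0 in all P0 libraries. The plot of levels per library shows 28 of the genes named here and below.

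**Figure D2:**
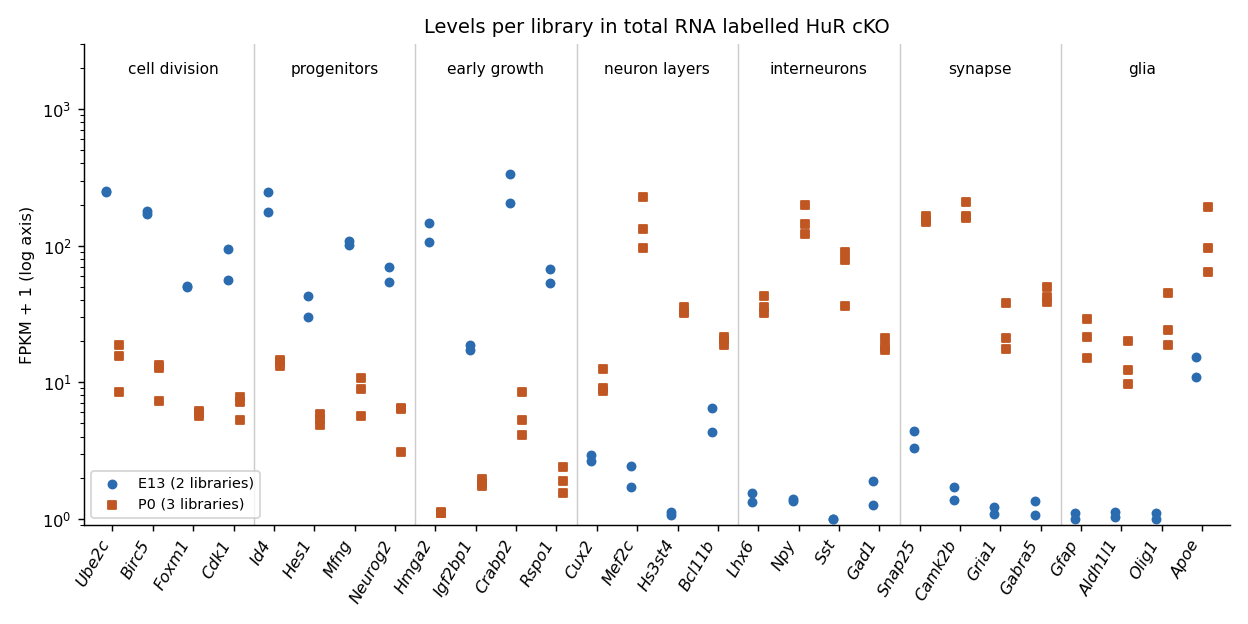
FPKM + 1 on a log axis for 28 genes in 7 groups, with 1 point per library (2 E13 libraries as circles, 3 P0 libraries as squares). In the groups on the left (cell division, progenitors, early growth) both E13 points lie above all P0 points, and in the other groups all P0 points lie above both E13 points.

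Cell division genes fell almost without exception. Of 53 tested genes of DNA replication and mitosis, 50 fell and none rose, with a median of -2.56 beside 0.04 for all genes. In bulk tissue, fewer cells of a type and less of an RNA per cell cannot be told apart. Ube2c, the ubiquitin-conjugating enzyme of the anaphase-promoting complex, measured 251 and 248 FPKM at E13 and 7.49, 17.7 and 14.6 FPKM at P0 and fell by 4.21 (SE 0.28, adjusted p = 1.78e-09). The mitotic kinase Cdk1 measured 94.3 and 55.2 FPKM at E13 and 4.25, 6.19 and 6.84 FPKM at P0 and fell by 3.46 (SE 0.26, adjusted p = 9.56e-09). Foxm1, a transcription factor of G2 and M phase genes, measured 49.2 and 49.7 FPKM at E13 and 4.62, 5.13 and 4.99 FPKM at P0 and fell by 3.09 (SE 0.22, adjusted p = 4.6e-09). In each of these both E13 libraries lay far above the highest P0 library. Birc5 (survivin), the replication kinase Cdk2, the S phase regulators Mybl2 and E2f2, and the thymidylate synthase Tyms fell (-4.02, -2.99, -3.41, -3.16 and -2.97). The 3 genes that did not pass the test were Cdk6 (-0.56, adjusted p = 0.101, called without P0 c2 at -0.75), Pola1 (-0.53, adjusted p = 0.117) and Mki67 (-0.37, adjusted p = 0.484). Mki67, the gene of the proliferation antigen Ki-67, was low at both ages, with 4.51 and 2.79 FPKM at E13 and 4.67, 1.4 and 2.24 FPKM at P0, and P0 c0 lay above both E13 libraries.

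Promoters of these genes are shown because so many of them fell together. In RefSeq (GRCm38.p6), 41 of the 53 tested genes had a window of 250 bases before the transcription start, 44 windows in all. Windows were searched on both strands for 3 motifs: CCAAT, the box bound by NF-Y, TTTGAA, the core of the cell cycle genes homology region (CHR), and TTTGGCGC, a site form of E2F factors. CCAAT was present in 34 windows (77.3%), against 33.8% of all 32851 RefSeq windows of that length and 35.2% of the 11389 windows of tested genes. TTTGAA was present in 11 windows (25%, against 16% and 9.95%), each of which also held CCAAT, and the 2 occurred together in 5.55% and 3.75% of the others. TTTGGCGC was present in 3 windows (6.82%, against 0.417% and 0.773%). For synaptic vesicle genes, which rose, CCAAT was present in 9 of 38 windows (23.7%). TTTGAA was present in 6 of them (15.8%) and both motifs in 3 (7.89%), shares also above those of tested genes. For glutamate receptor genes, which rose too, CCAAT was present in 2 of 11 windows and TTTGAA in 0. The matches describe letters in a window and do not show that a factor binds. The windows of 3 genes follow, those of lowest adjusted p with a single window that holds both CCAAT and TTTGAA. They read 5′ to 3′ on the gene's strand, end at the last base before the start, and show in capitals every match of CCAAT or TTTGAA or of their reverse complements ATTGG and TTCAAA, and matches that overlap or touch run together.
Ube2c, chr2:164769679-164769928, plus strand: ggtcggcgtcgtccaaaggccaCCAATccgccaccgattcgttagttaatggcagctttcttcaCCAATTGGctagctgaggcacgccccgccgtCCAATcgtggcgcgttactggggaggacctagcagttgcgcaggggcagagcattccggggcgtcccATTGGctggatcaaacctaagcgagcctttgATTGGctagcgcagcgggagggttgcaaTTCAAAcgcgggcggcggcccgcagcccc
Cdk1, chr10:69352913-69353162, minus strand: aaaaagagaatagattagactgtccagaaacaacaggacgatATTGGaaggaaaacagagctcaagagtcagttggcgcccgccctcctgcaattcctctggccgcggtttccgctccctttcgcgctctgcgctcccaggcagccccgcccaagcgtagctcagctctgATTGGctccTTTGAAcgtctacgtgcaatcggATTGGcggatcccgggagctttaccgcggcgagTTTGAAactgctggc
Ccnb2, chr9:70421555-70421804, minus strand: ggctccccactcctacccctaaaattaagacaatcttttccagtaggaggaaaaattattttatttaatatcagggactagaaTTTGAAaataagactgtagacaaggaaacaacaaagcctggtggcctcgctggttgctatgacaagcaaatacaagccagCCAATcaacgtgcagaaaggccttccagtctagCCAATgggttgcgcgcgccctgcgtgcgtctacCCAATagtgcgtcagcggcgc
Ube2c held 6 CCAAT matches, the nearest beginning 57 bases before the start, and 1 TTCAAA at 29 bases. Cdk1 held 3 ATTGG matches, at 208, 80 and 48 bases, and TTTGAA at 71 and 15 bases. Ccnb2, a mitotic cyclin gene that fell by 3.33 (SE 0.34, adjusted p = 2.41e-07), held CCAAT at 87, 54 and 21 bases, 33 bases apart, and TTTGAA at 167 bases.

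Progenitor genes fell in greater number than they rose. Among 24 tested radial glia genes, 14 fell and 7 rose, with a median of -1.13. Of all genes tested 23.2% fell and 27.8% rose, so the share of radial glia genes that rose was near that of all genes. Id4, an inhibitor of basic helix-loop-helix factors, measured 177 and 247 FPKM at E13 and 12.1, 13.5 and 13.1 FPKM at P0 and fell by 3.92 (SE 0.27, adjusted p = 2.66e-09). The Notch effector Hes1 measured 29 and 41.6 FPKM at E13 and 4.38, 4.86 and 3.86 FPKM at P0 and fell by 2.74 (SE 0.33, adjusted p = 2.16e-06). The patterning factor Pax6 measured 45.6 and 48.2 FPKM at E13 and 9.01, 10.4 and 12 FPKM at P0 and fell by 2.07 (SE 0.26, adjusted p = 3.44e-06). These 3 genes separated the ages without overlap and varied little among P0 libraries. Dach1, the surface protein gene Prom1, Sox3, Gli3 and Emx2, regulators of progenitor identity apart from Prom1, fell (-2.87, -2.55, -3.18, -2.31 and -2.29). The 7 members that rose were Tnc (3.31), Ptprz1 (2.35), Slc1a3 (1.8), Aldoc (1.69), Fabp7 (1.65), Cdh2 (0.97) and Ednrb (0.97), of which Slc1a3, Aldoc and Fabp7 are also known from astrocytes. Tnc, an extracellular matrix gene, measured 0.112 and 0.0399 FPKM at E13 and 36.1, 3.81 and 5.8 FPKM at P0, with P0 c0 far above the other P0 libraries. The calls of Cdh2 and Ednrb were lost without E13 c0 (0.64 and 0.47) and without P0 c0 (0.67 and 0.53). Sox1, Hopx and Notch2 did not pass the test (-0.42, 0.40 and -0.40), though Notch2 fell without P0 c0 (-0.99).

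Among 14 genes of intermediate progenitors, 11 fell and 1 rose (median -1.83). The proneural factor Neurog2 measured 53.1 and 68.5 FPKM at E13 and 2.1, 5.41 and 5.49 FPKM at P0 and fell by 3.6 (SE 0.31, adjusted p = 4.08e-08). Neurog1, its close relative, measured 6.78 and 6.57 FPKM at E13 and 0, 0 and 0.0452 FPKM at P0 and fell by 2.92 (SE 0.26, adjusted p = 5.73e-08). Eomes (Tbr2), the factor that defines these cells, measured 16.8 and 29.3 FPKM at E13 and 4.58, 7.63 and 10.3 FPKM at P0 and fell by 1.51 (SE 0.31, adjusted p = 0.000503). All 3 were lower in each P0 library than in either E13 library. Nhlh1, Btg2, Tfap2c, Dll1 and Rcor2 fell (-3.62, -2.87, -2.74, -2.13 and -1.53). Elavl2 was the member that rose, and Insm1 (1.03, adjusted p = 0.0549) and Sstr2 (0.30) did not pass the test. Without E13 c0 no member rose, and without P0 c0 both Elavl2 and Insm1 (1.28) did.

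Signals that act on progenitors moved with them. In the Notch pathway 15 of 23 tested genes fell and 3 rose (median -0.87), and 18 fell without P0 c0. Ligand Dll1 fell, as did the receptor Notch3 (-1.87), the Fringe glycosyltransferases Mfng (-3.69) and Lfng (-2.23), and the targets Hey1 (-2.36), Nrarp (-2.05) and Hes5 (-2.23). Mfng measured 107 and 101 FPKM at E13 and 4.68, 9.67 and 7.87 FPKM at P0. The remaining Fringe, Rfng, rose (1.17), as did the ligand Jag2 (1.16) and Numbl, which restrains Notch (0.89). Without E13 c0, 1 Notch gene rose in place of 3, since Jag2 and Numbl lost their calls (1.07 and 0.87).

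In the Wnt pathway 23 of 38 tested genes fell and 4 rose (median -1.3), and 25 fell without P0 c0. The ligand gene Wnt8b, active in the medial edge of the embryonic cortex, measured 16 and 17.1 FPKM at E13 and 0.361, 0.246 and 0.335 FPKM at P0 and fell by 3.74 (SE 0.25, adjusted p = 2.62e-09). Its relative Wnt3a measured 12.9 and 5.82 FPKM at E13 and 0.158, 0.117 and 0.0781 FPKM at P0 and fell by 3.13 (SE 0.38, adjusted p = 2.13e-06). The receptor gene Fzd2 measured 31.3 and 28.3 FPKM at E13 and 1.59, 1.61 and 1.57 FPKM at P0 and fell by 3.57 (SE 0.24, adjusted p = 2.53e-09). At P0 none of these 3 exceeded 1.61 FPKM in any library. Receptors Fzd10 and Fzd1 and the transcription factor Tcf7l1 fell (-2.23, -1.89 and -2.44). Of the 4 that rose, Apc (3.36) and Gsk3b (1.29) encode parts of the β-catenin destruction complex, and Dkk3 (1.99) is a Dickkopf relative. The other, Tcf4 (2.15), encodes an E protein under this symbol, as does the listed Tcf3 that fell (-2.11), so these 2 are not Wnt effectors. Ctnnb1, the β-catenin gene, measured 323 and 204 FPKM at E13 and 266, 226 and 268 FPKM at P0, with a difference of -0.03 that did not pass the test.

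RNA regulators of early development fell with Hmga2. Of 10 such genes, 8 fell. The IMP family, RNA-binding proteins of embryonic tissues, fell throughout. Igf2bp1 measured 16.2 and 17.7 FPKM at E13 and 0.828, 0.724 and 0.961 FPKM at P0 and fell by 3.29 (SE 0.27, adjusted p = 2.24e-08). Igf2bp2 measured 29.8 and 52.1 FPKM at E13 and 2.92, 4.01 and 4.78 FPKM at P0 and fell by 3.06 (SE 0.34, adjusted p = 7.6e-07). Igf2bp3 measured 19 and 25.6 FPKM at E13 and 2.93, 3.55 and 4.01 FPKM at P0 and fell by 2.36 (SE 0.22, adjusted p = 9.2e-08). No P0 library came near an E13 library for these. Lin28b, which blocks maturation of let-7 miRNAs, measured 1.68 and 2.92 FPKM at E13 and 0.286, 0.0927 and 0.0896 FPKM at P0 and fell by 1.49 (SE 0.27, adjusted p = 0.000159). Arid3b and Hmga1 fell (-1.29 and -0.98). Dis3l2, an exonuclease gene, was called higher (0.59, adjusted p = 0.0497), a call lost without E13 c1 (0.28), P0 c0 (0.43) or P0 c2 (0.67) and under 6 other settings.

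Neuron genes of both deep and upper layers rose. For deep layers 13 of 16 tested genes rose and none fell (median 2.05). Hs3st4, a heparan sulfate sulfotransferase of layer 6, measured 0.0574 and 0.127 FPKM at E13 and 31.7, 31.3 and 34.7 FPKM at P0 and rose by 4.94 (SE 0.27, adjusted p = 3.37e-10). Bcl11b (Ctip2), the factor of subcerebral projection neurons, measured 3.33 and 5.52 FPKM at E13 and 19.4, 17.8 and 20.4 FPKM at P0 and rose by 1.92 (SE 0.26, adjusted p = 6.23e-06). Crym, a thyroid hormone binding protein of layer 5, measured 15.7 and 5.18 FPKM at E13 and 121, 132 and 78.9 FPKM at P0 and rose by 3.43 (SE 0.40, adjusted p = 1.19e-06). P0 values of all 3 exceeded those of E13 without overlap. Ldb2, Syt6, Zfpm2, Pcp4 and Nfe2l3 rose (3.41, 2.81, 2.37, 2.56 and 2.17). The 3 deep-layer genes that did not pass the test were the early postmitotic factor Tbr1 (0.45), Fezf2 (0.20) and Diap3 (0.22). Tbr1 measured 18.1 and 32.2 FPKM at E13 and 43.3, 28.4 and 30.4 FPKM at P0 and Fezf2 measured 34.9 and 48.3 FPKM at E13 and 33, 64.7 and 49.2 FPKM at P0, both already high at E13 with overlapping ages.

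For upper layers 13 of 16 genes rose and 1 fell (median 1.92). Mef2c, a factor of neuron survival and synapse number, measured 0.72 and 1.42 FPKM at E13 and 225, 94.4 and 132 FPKM at P0 and rose by 6.12 (SE 0.34, adjusted p = 3.69e-10). Cux2, which marks layers 2 to 4, measured 1.67 and 1.92 FPKM at E13 and 11.5, 8.04 and 7.6 FPKM at P0 and rose by 1.83 (SE 0.26, adjusted p = 1.5e-05). Every P0 library exceeded both E13 libraries, and P0 c0 was the highest for both Mef2c and Cux2. The POU factor Pou3f1, Lmo4, the netrin receptor Unc5d, Cdh13 and Kitl rose (3.64, 3.03, 2.11, 3.67 and 1.94). Lhx2, which is also a progenitor factor, measured 141 and 266 FPKM at E13 and 69.2, 119 and 95.5 FPKM at P0 and fell by 1.06 (SE 0.32, adjusted p = 0.0108), a call lost without E13 c1 (-0.60). The pan-cortical neuron factors Neurod6 and Neurod2 rose (4.01 and 3.46).

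Most interneuron genes rose. Of 22 tested genes, 19 rose and none fell (median 1.81). Lhx6, the factor that specifies interneurons of the medial ganglionic eminence, measured 0.54 and 0.32 FPKM at E13 and 31.3, 41.5 and 34.8 FPKM at P0 and rose by 4.68 (SE 0.22, adjusted p = 1.51e-10). The neuropeptide genes Npy and Sst measured 0.406 and 0.359 FPKM at E13 and 143, 198 and 120.3 FPKM at P0 and 0 and 0 FPKM at E13 and 77.5, 88.7 and 35.2 FPKM at P0, respectively. Sst was listed at 0 in both E13 libraries, and Npy rose by 6.78 (SE 0.40, adjusted p = 6.54e-10). Gad1, the enzyme that makes GABA, measured 0.254 and 0.902 FPKM at E13 and 20.1, 16.1 and 17 FPKM at P0 and rose by 3.59 (SE 0.29, adjusted p = 1.81e-08). No E13 library reached 1 FPKM for Lhx6, Npy, Sst or Gad1, and every P0 library exceeded 10 FPKM. Npas1, Maf and the vesicular GABA transporter Slc32a1 rose (3.14, 2.37 and 2.24). Dlx2, a factor of interneuron progenitors, was among the 3 that did not pass the test (1.55, adjusted p = 0.0583).

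Receptors, channels and synaptic proteins rose together. All 17 tested glutamate receptor genes rose (median 2.49). The AMPA receptor subunit Gria1 measured 0.0898 and 0.226 FPKM at E13 and 37.2, 16.5 and 20.2 FPKM at P0 and rose by 4.39 (SE 0.30, adjusted p = 2.62e-09). Grin1, the obligatory NMDA receptor subunit, measured 0.281 and 0.416 FPKM at E13 and 39.2, 10.3 and 9.88 FPKM at P0 and rose by 3.66 (SE 0.41, adjusted p = 7.41e-07). Metabotropic receptor Grm5 measured 0.00941 and 0 FPKM at E13 and 21.9, 4.35 and 6.83 FPKM at P0 and rose by 3.29 (SE 0.40, adjusted p = 2.38e-06). P0 c0 was the highest library in each, yet c1 and c2 also exceeded both E13 libraries. Grid1, Grm2, Grik3, Gria3 and Gria2 rose (3.04, 2.22, 2.88, 2.49 and 2.43). Without P0 c0, 15 of 16 tested glutamate receptor genes rose and none fell.

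All 14 tested GABA and glycine receptor genes rose (median 2.73), and so did all 13 tested without P0 c0. Gabra5, the α5 subunit of extrasynaptic GABA-A receptors, measured 0.062 and 0.358 FPKM at E13 and 48.9, 41.4 and 37.6 FPKM at P0 and rose by 5.17 (SE 0.33, adjusted p = 1.29e-09). Glra2, the glycine receptor α2 subunit of immature neurons, measured 0.604 and 1.69 FPKM at E13 and 22.6, 25.7 and 28.6 FPKM at P0 and rose by 3.67 (SE 0.28, adjusted p = 1.03e-08). In both the 3 P0 libraries were close to each other and far above E13. Gabrb2, Gabra2 and the GABA-B subunits Gabbr2 and Gabbr1 rose (3.48, 3.13, 3.92 and 2.33). Of chloride and pump transporters, 8 of 12 rose and 1 fell. Slc12a5 (KCC2), which extrudes chloride from neurons and makes GABA inhibitory, measured 0.186 and 0.449 FPKM at E13 and 12.4, 3.15 and 3.28 FPKM at P0 and rose by 2.24 (SE 0.37, adjusted p = 6.54e-05). Slc12a2 (NKCC1), which takes chloride up, measured 5.25 and 6.8 FPKM at E13 and 12.7, 4.37 and 7.03 FPKM at P0 and did not pass the test (0.27, and -0.09 without P0 c0). The member that fell was Slc12a7 (-2.04), while the sodium pump subunit Atp1b1 rose (4.23).

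Voltage-gated channels followed, with 19 of 23 sodium and calcium channel genes (median 1.95) and 31 of 35 potassium and HCN channel genes (median 1.89) higher at P0 and none lower. Cacng3, an AMPA receptor partner of the calcium channel γ family, was listed at 0 in both E13 libraries and measured 7.88 to 10.3 FPKM at P0. The sodium channel subunits Scn2a1 and Scn3b rose (2.88 and 3.55). Kcnip2, a partner of A-type potassium channels, measured 0 and 0.962 FPKM at E13 and 24.2, 21.4 and 19.1 FPKM at P0 and rose by 4.0 (SE 0.28, adjusted p = 2.72e-09). Kcnh3, Kcnip4 and the G-protein-gated channel Kcnj3 rose (3.32, 3.12 and 2.72).

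At the presynapse 33 of 38 genes rose and none fell (median 3.16). The SNARE protein gene Snap25 measured 2.31 and 3.39 FPKM at E13 and 163, 149 and 153 FPKM at P0 and rose by 5.36 (SE 0.31, adjusted p = 5.2e-10). Its vesicle partner Vamp2 measured 27.9 and 34.5 FPKM at E13 and 296, 352 and 350.2 FPKM at P0 and rose by 3.38 (SE 0.22, adjusted p = 2.03e-09). Syt4, a synaptotagmin, measured 1.69 and 2.07 FPKM at E13 and 149.7, 67.7 and 92 FPKM at P0 and rose by 5.1 (SE 0.32, adjusted p = 1.29e-09). The P0 libraries agreed closely for Snap25 and Vamp2. The active zone proteins Erc2 and Ppfia2, the SNARE Stx1a and the vesicle GTPases Rab3c and Rab3a rose (4.37, 3.69, 3.41, 3.29 and 3.52). Unc13b, a vesicle priming gene, was among the 5 that did not pass the test (-0.39).

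On the postsynaptic side 33 of 38 genes rose and 2 fell (median 2.39). The scaffold Dlg2 (PSD-93) measured 0.279 and 0.348 FPKM at E13 and 48.1, 33.6 and 45.6 FPKM at P0 and rose by 5.03 (SE 0.25, adjusted p = 1.7e-10). Its partner Dlgap1 measured 0.256 and 0.0809 FPKM at E13 and 33.2, 21.8 and 28.1 FPKM at P0 and rose by 4.6 (SE 0.24, adjusted p = 2.57e-10). Each P0 library was far above either E13 library for both scaffolds. Camkv, Hpca, Ncald and Camk4, of calcium signalling, rose (4.43, 4.85, 3.55 and 3.5). Homer3 and the scaffold Dlg1 fell (-1.58 and -1.0). 

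Neurite cytoskeleton genes were among the most abundant that rose, 33 of 39 against 3 that fell (median 2.5). Gap43, a growth cone protein and a known HuR target, measured 17.3 and 39.7 FPKM at E13 and 929.6, 811 and 649.9 FPKM at P0 and rose by 4.86 (SE 0.33, adjusted p = 2.38e-09). Stmn2, a microtubule regulator of axons, measured 50.8 and 88.8 FPKM at E13 and 1101, 1049 and 1059 FPKM at P0 and rose by 3.97 (SE 0.29, adjusted p = 4.63e-09). Kif5a, the neurofilament Nefm, Tubb2a and Mtap4 rose (4.27, 4.17, 4.29 and 2.93). The 3 that fell were the tubulins Tuba1b (-2.03), Tuba1c (-3.23) and Tubb6 (-1.48). Tuba1a, Tuba1b and Tuba1c are near-identical in coding sequence, so their split depends on how the authors' counting placed reads. The call of Tuba1c was lost without E13 c0 (-2.12).

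Of neuropeptide and receptor genes, 19 of 22 rose and none fell (median 2.46), and 15 of 21 rose without P0 c0. Nts, the neurotensin gene, measured 1.45 and 0.678 FPKM at E13 and 78, 60.2 and 53.1 FPKM at P0 and rose by 4.98 (SE 0.31, adjusted p = 9.86e-10), and its receptor Ntsr1 rose by 3.58 (SE 0.37, adjusted p = 3.38e-07). The granins Scg3 and Chgb rose (3.18 and 4.03). Axon guidance genes were divided, with 25 of 50 higher and 9 lower (median 0.84), beside 27.8% and 23.2% of all genes tested. Sema3c, Unc5a, Sema6b, Nrp1 and Sema7a rose (2.81, 2.86, 2.63, 2.79 and 2.92), while the ephrin Efnb1 and the receptor Ephb4 fell (-2.35 and -2.12). As P0 c0 was high for this group, the counts without it were 19 higher and 11 lower of 49 (median 0.33). Of all genes, 25.8% were then higher and 21.4% lower.

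**Figure D3:**
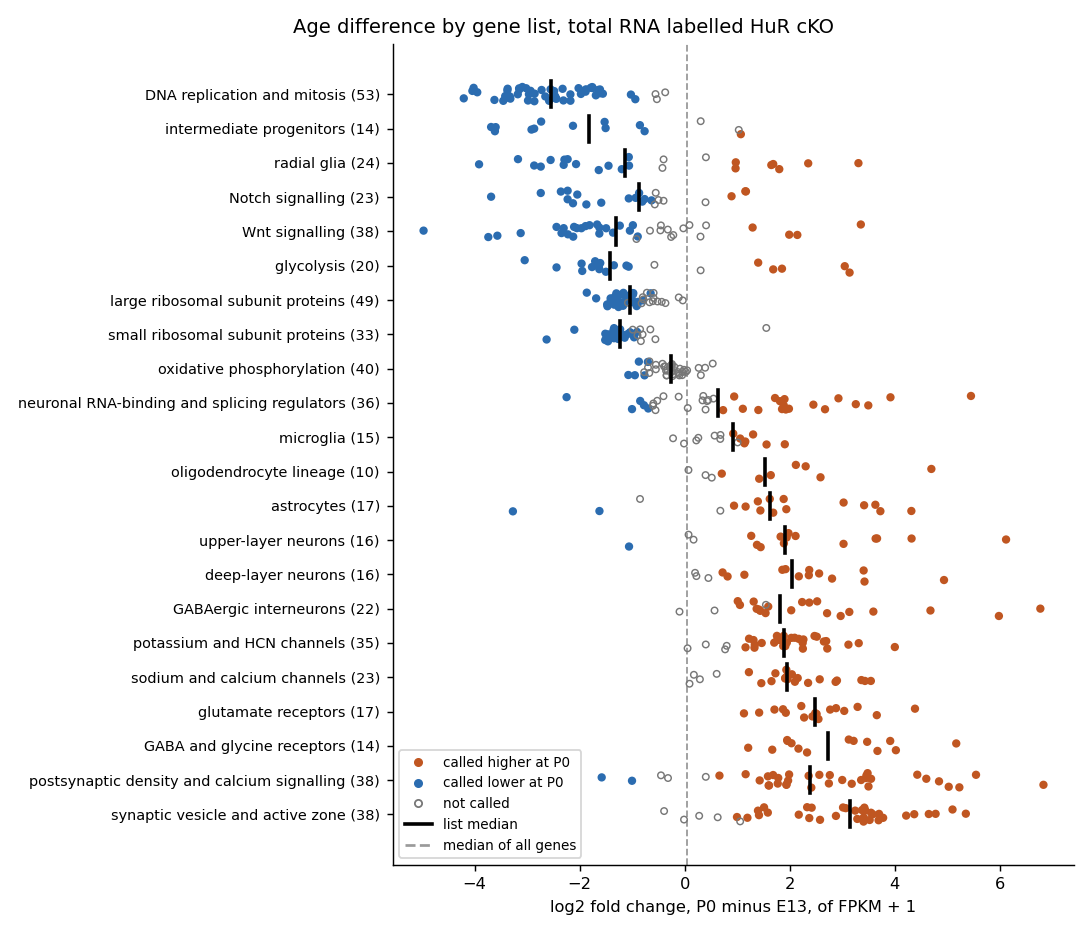
Log2 fold change (P0 minus E13) of each tested member of 22 gene lists, filled where the gene passed the test and open where it did not, with the list median as a black bar and the median of all genes (0.04) as a dashed line. Lists of cell division, progenitors and ribosomal proteins lie to the left and those of neurons, receptors and synapses to the right, with the vesicle list at a median of 3.16.

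Astrocyte and oligodendrocyte genes mostly rose. Of 17 tested astrocyte genes, 13 rose and 2 fell (median 1.62). Gfap, the intermediate filament of astrocytes, measured 0 and 0.108 FPKM at E13 and 28.1, 20.3 and 13.9 FPKM at P0 and rose by 4.32 (SE 0.28, adjusted p = 1.36e-09). Aldh1l1, a folate enzyme used as an astrocyte marker, measured 0.0266 and 0.118 FPKM at E13 and 19, 11.2 and 8.64 FPKM at P0 and rose by 3.63 (SE 0.29, adjusted p = 1.34e-08). The lipid carrier Apoe measured 14.4 and 9.89 FPKM at E13 and 191, 94.4 and 63 FPKM at P0 and rose by 3.03 (SE 0.40, adjusted p = 5.89e-06). Ages did not overlap in any of the 3, and P0 c0 was the highest library. Sparcl1 and Acsl6 rose (3.73 and 1.62). Fgfr3 and the gap junction gene Gja1, both also expressed by radial glia, fell (-3.27 and -1.62), and Mlc1 (0.68) and Id3 (-0.85, called at -1.19 without P0 c1) did not pass the test.

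In the oligodendrocyte lineage 7 of 10 genes rose and none fell (median 1.53). The lineage factor Olig1 measured 0 and 0.103 FPKM at E13 and 23, 43.9 and 17.9 FPKM at P0 and rose by 4.7 (SE 0.35, adjusted p = 6.4e-09). Sox10, a factor of committed precursors, measured 0 and 0.0813 FPKM at E13 and 6.19, 3.14 and 2.09 FPKM at P0 and rose by 2.12 (SE 0.29, adjusted p = 7.73e-06). Lhfpl3, Sox8, Olig2, the precursor receptor Pdgfra and the myelin gene Mbp rose (2.59, 1.64, 2.3, 1.42 and 0.71). Pdgfra and Mbp lost their calls without E13 c0 (1.22 and 0.59), and Mbp also without P0 c0 (0.66). Microglia genes rose in 7 of 15 cases (median 0.92) and in 5 without P0 c0. The complement gene C1qc measured 1.74 and 4.1 FPKM at E13 and 17.3, 15.2 and 8.32 FPKM at P0 and rose by 1.91 (SE 0.33, adjusted p = 9.01e-05), and Trem2, a lipid receptor of microglia, measured 0.924 and 1.27 FPKM at E13 and 6.12, 4.14 and 2.74 FPKM at P0 and rose by 1.3 (SE 0.30, adjusted p = 0.00161).

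Markers of red blood cells fell. Erythroid genes took 2.20% and 1.09% of summed FPKM in the E13 libraries and 0.0391%, 0.112% and 0.0644% at P0. Of 14 tested, 10 fell and none rose (median -2.72). Hbb-y and Hba-x, globins of the embryo, measured 8643 and 3914 FPKM at E13 and 0, 0.267 and 0.31 FPKM at P0 and 4139 and 1244 FPKM at E13 and 0.161, 0.279 and 0 FPKM at P0, respectively. Hbb-bh1, another embryonic globin, measured 1660.4 and 347 FPKM at E13 and was listed at 0 in all P0 libraries. Adult globins such as Hba-a1 (-3.16) and Hbb-b1 (-2.88) fell as well, though their near-identical copies make the split between them uncertain. Slc4a1, the anion exchanger of red cells, fell by 3.67 (SE 0.27, adjusted p = 5.6e-09). The part of blood RNA in the differences of other genes was not tested.

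Endothelial and mural genes were split, with 4 of 20 higher and 4 lower, but 4 higher and 11 lower without P0 c0. With P0 c0 these shares were below those of all genes (27.8% higher and 23.2% lower). Their summed level was 224 and 177 FPKM at E13 and 222, 87.3 and 81.3 FPKM at P0. Pecam1 measured 8.04 and 8.37 FPKM at E13 and 5.97, 0.947 and 1.15 FPKM at P0, with P0 c0 near the E13 libraries and c1 and c2 well below them. The glucose transporter Slc2a1 fell by 3.05 (SE 0.35, adjusted p = 1.31e-06), and the transporter Slco1c1 rose by 3.29 (SE 0.27, adjusted p = 1.84e-08). Meningeal and fibroblast genes numbered 9 higher and 3 lower of 21 (median 0.40, and 8 higher and 4 lower with a median of -0.08 without P0 c0), among them Ptgds and Crabp2, given above, the retinoic acid enzyme Aldh1a2 (2.62) and Lum, a matrix proteoglycan (-2.65).

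RNA-binding protein genes of neurons changed in both directions. In the Elavl family, Elavl3 measured 9.01 and 12.2 FPKM at E13 and 135, 120.3 and 139 FPKM at P0 and rose by 3.52 (SE 0.37, adjusted p = 3.67e-07). Elavl2 measured 15.5 and 22 FPKM at E13 and 29.6, 39.5 and 54 FPKM at P0 and rose by 1.07 (SE 0.30, adjusted p = 0.00557). Elavl4 measured 8.2 and 14.6 FPKM at E13 and 18.8, 23.4 and 30.8 FPKM at P0 and rose by 1.05 (SE 0.30, adjusted p = 0.00642). The neuronal members were thus higher in every P0 library while Elavl1 was lower, although the calls of Elavl2 and Elavl4 were lost without E13 c0 (0.83 and 0.67). Of 36 neuronal RNA-binding and splicing regulators, 18 rose and 5 fell (median 0.64), beside 27.8% higher and 23.2% lower of all genes tested. Rbfox1, a splicing factor of mature neurons, measured 0.278 and 0.335 FPKM at E13 and 56.1, 50 and 63.6 FPKM at P0 and rose by 5.45 (SE 0.27, adjusted p = 1.51e-10). Rbfox3 (NeuN) and the CELF genes Celf4, Celf5, Celf2 and Celf6 rose (3.5, 3.92, 3.26, 2.45 and 2.67). Ptbp1, which represses neuronal splicing in progenitors, measured 151 and 97.8 FPKM at E13 and 27.8, 24.6 and 22.2 FPKM at P0 and fell by 2.25 (SE 0.34, adjusted p = 2.39e-05). Others that fell were Msi1 (-1.0), Msi2 (-0.85), Celf1 (-0.69) and Rbm4 (-0.78). Of these 5, Msi2, Celf1 and Rbm4 lost their calls both without P0 c0 (2 genes of the list then fell) and without E13 c0 (3 fell), while Msi1 and Msi2 lost their calls without E13 c1 (-0.90 and -0.59), Celf1 and Msi2 without P0 c1 (-0.63 and -0.70) and Rbm4 without P0 c2 (-0.80).

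Of 29 mRNAs known as HuR targets, 9 rose, 6 fell and the rest did not pass the test (median 0.20 beside 0.04). These shares were near those of all genes tested (27.8% higher and 23.2% lower). The cyclins Ccnb1, Ccnd1, Ccne1 and Ccna2 fell (-3.95, -2.58, -3.32 and -3.36), in the company of the other cell division genes. Ccnd1, of G1 phase, measured 79.8 and 83.7 FPKM at E13 and 10.7, 14 and 14 FPKM at P0. Gap43, given above, Foxp1, Myc and Ache rose. Myc, a growth factor-responsive transcription factor, measured 1.64 and 1.58 FPKM at E13 and 27, 16.4 and 13.1 FPKM at P0 and rose by 2.87 (SE 0.40, adjusted p = 9.45e-06). Foxp1, a factor of cortical neurons, measured 3.85 and 6.62 FPKM at E13 and 35.7, 22.4 and 30.3 FPKM at P0 and rose by 2.3 (SE 0.26, adjusted p = 8.84e-07). Among targets that did not pass the test were Mycn (-0.37) and Hif1a (0.22), and Hif1a, of the response to low oxygen, measured 19.6 and 18.6 FPKM at E13 and 22.6, 19.1 and 25.9 FPKM at P0, with overlapping ages. Without P0 c0 the counts were 6 higher and 6 lower, beside 25.8% and 21.4% of all genes.

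Ribosomal protein mRNAs fell at P0 in number but the count rested on single libraries. Small subunit genes fell in 25 of 33 cases (median -1.23) and large subunit genes in 35 of 49 (median -1.05), with none higher. Without P0 c0 16 and 18 fell, without E13 c0 9 and 5, without E13 c1 22 of the large subunit, and in a fit of the 5 libraries alone 5 and 6. The medians without P0 c0 were -0.85 and -0.65. Rps2 measured 7070.1 and 4431 FPKM at E13 and 847, 1945 and 1340 FPKM at P0 and fell by 2.1 (SE 0.36, adjusted p = 9.55e-05). Rps6, the subunit protein phosphorylated by S6 kinase, measured 1623 and 1775 FPKM at E13 and 399, 937 and 789 FPKM at P0 and fell by 1.35 (SE 0.33, adjusted p = 0.00218). P0 c0 was the lowest library in both, and c1 and c2 were also below E13. Ribosomal protein genes have many processed copies, which makes single values uncertain. Small and large subunit genes took 14.6% and 16.1% of summed FPKM in E13 c0, 15.1% and 17.2% in c1, and 5.64% and 7.30%, 10.6% and 13.3%, and 8.76% and 11.0% in the P0 libraries.

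Translation factors were mixed, with 7 of 55 higher and 13 lower (5 lower without E13 c0, 7 lower in a fit of the 5 libraries alone). Over all genes tested the shares were 27.8% higher and 23.2% lower. Eef1a2, the elongation factor of mature neurons and muscle, measured 1.9 and 0.807 FPKM at E13 and 97.7, 71.2 and 52.3 FPKM at P0 and rose by 4.98 (SE 0.48, adjusted p = 1.43e-07). The initiation factor Eif4a2 rose (1.99), as did Eif4g3 (2.15) and the kinase Eef2k (1.66). Eif4ebp1, a repressor of cap-dependent initiation, measured 58.2 and 29.9 FPKM at E13 and 2.62, 6.69 and 3.96 FPKM at P0 and fell by 3.05 (SE 0.35, adjusted p = 1.15e-06). Its relative Eif4ebp2 measured 115 and 112 FPKM at E13 and 33, 29 and 39.8 FPKM at P0 and fell by 1.72 (SE 0.26, adjusted p = 2.19e-05). Both repressors were lower in all 3 P0 libraries than in either E13 library.

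Glycolysis genes fell more often than they rose (13 lower and 5 higher of 20, median -1.43). Tpi1 measured 788 and 501 FPKM at E13 and 105, 138 and 105 FPKM at P0 and fell by 2.44 (SE 0.25, adjusted p = 2.58e-07), and Ldha, the lactate dehydrogenase, measured 1159.5 and 514 FPKM at E13 and 220.2, 201 and 172 FPKM at P0 and fell by 1.96 (SE 0.34, adjusted p = 0.000119). Genes of oxidative phosphorylation had a median of -0.26, with 5 of 40 lower, a count that ran from 0 (without E13 c0) to 10 (without P0 c1). Both lists stand beside 27.8% higher and 23.2% lower of all genes tested.

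Some related genes moved in opposite directions. The pairs that follow were chosen after their values were seen. In the BAF chromatin remodeler, Actl6a (BAF53a), of progenitors, measured 136 and 73.1 FPKM at E13 and 10.2, 12.7 and 13.6 FPKM at P0 and fell by 2.94 (SE 0.39, adjusted p = 6.06e-06). Actl6b (BAF53b), of neurons, measured 11.9 and 10.9 FPKM at E13 and 88.3, 99.2 and 74.3 FPKM at P0 and rose by 2.82 (SE 0.47, adjusted p = 6.59e-05). Their order was reversed between the ages in every library. Of enolases, Eno1 measured 586 and 238 FPKM at E13 and 183, 82 and 114 FPKM at P0 and fell by 1.63 (SE 0.44, adjusted p = 0.00477), while the neuronal Eno2 measured 2.52 and 2.38 FPKM at E13 and 34.5, 25.7 and 23.6 FPKM at P0 and rose by 3.05 (SE 0.29, adjusted p = 1.36e-07). Of hexokinases, Hk2 measured 3.99 and 5.95 FPKM at E13 and 0.993, 0.897 and 0.903 FPKM at P0 and fell by 1.61 (SE 0.28, adjusted p = 9.11e-05), while Hk1 measured 6.47 and 3.94 FPKM at E13 and 83, 44.7 and 39.1 FPKM at P0 and rose by 3.14 (SE 0.34, adjusted p = 5.22e-07). Eno1 remained above Eno2 in all libraries, whereas Hk1 was above Hk2 in E13 c0, below it in E13 c1 and far above it in each P0 library. Ezh2 remained above Ezh1, and Tuba1a was higher than Tuba1b in all libraries of both ages. The Polycomb methyltransferase Ezh2 fell (-1.58) while Ezh1 rose (1.32). Tuba1b fell and Tuba1a rose (1.72). The calls of Eno1 without E13 c0 (-0.99) and of Tuba1a without E13 c1 (1.25) were lost.

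**Figure D4:**
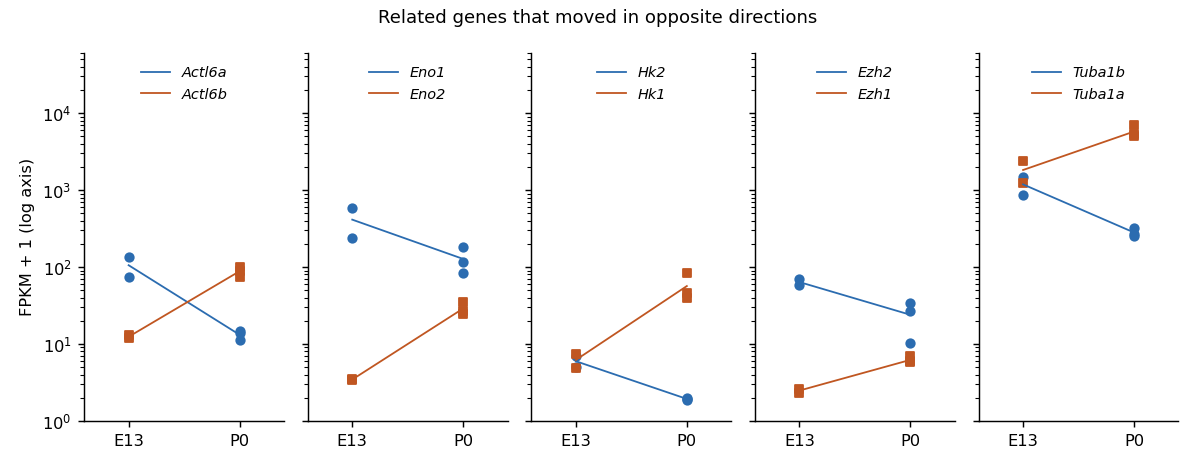
FPKM + 1 on a log axis for 5 pairs of related genes, with 1 point per library and lines that join the means of the 2 E13 and 3 P0 libraries. In each pair one gene was lower and the other higher at P0, and Actl6a and Actl6b crossed.

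Chromatin genes as lists were mixed. Of the BAF list 10 rose and 6 fell of 24 (8 and 4 of 23 without P0 c0), with Smarca2, Ss18l1 and Smarcc2 higher (2.62, 2.46 and 1.98) and Dpf2 lower (-1.58). Of the DNA methylation and Polycomb list 4 rose and 7 fell of 25. Both lists stand beside 27.8% higher and 23.2% lower of all genes tested. Uhrf1, which brings maintenance methylation to replicated DNA, measured 68.1 and 48.9 FPKM at E13 and 4.86, 3.13 and 3.46 FPKM at P0 and fell by 3.62 (SE 0.29, adjusted p = 1.43e-08). Cbx2, a reader of Polycomb complex 1, measured 47.9 and 34.6 FPKM at E13 and 4.1, 4.01 and 3.85 FPKM at P0 and fell by 3.06 (SE 0.26, adjusted p = 2.8e-08). The core Polycomb subunit Eed and the methyltransferase Dnmt3b fell (-1.65 and -1.54).

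The age difference in libraries labelled cKO was set beside that in WT, which asks whether the label goes with another course of development. In WT total RNA 24.4% of 12123 genes rose and 27.9% fell. Of 12001 genes tested in both genotypes, 4986 were called in both, 4984 in the same direction, and 1141 and 1278 were called in cKO or in WT alone, which does not show that these differed. The difference of the 2 age differences was tested itself in a joint fit of all 31 libraries, and 2 of 12233 genes passed (0.0163%). The median of that difference over all genes was 0.17, and 760 genes had an unadjusted p under 0.05, 682 of them positive. After rescaling each library by its median ratio the median was 0.07 and no gene passed.

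The 2 genes were Aldoc, an aldolase of astrocytes and radial glia (chromosome 11, 78323073 to 78327781), and Ndrg2, a gene of astrocytes (chromosome 14, 51905271 to 51914004, both GRCm38.p6). Aldoc measured 27.2 and 27.2 FPKM at E13 and 82.3, 99.4 and 88.7 FPKM at P0 in the libraries labelled cKO and 149.6 and 105 FPKM at E13 and 44.9, 54.8 and 72.3 FPKM at P0 in WT. It rose in the former (1.69, SE 0.37) and fell in WT (-1.14), and the difference was 2.83, SE 0.49, adjusted p = 0.0288. Ndrg2 measured 22.4 and 15.5 FPKM at E13 and 70.3, 99.9 and 88.2 FPKM at P0 in the libraries labelled cKO and 90 and 64 FPKM at E13 and 58.7, 58.8 and 86.1 FPKM at P0 in WT. There the age difference was 2.13 (SE 0.30) under the cKO label and -0.18 in WT, and the difference was 2.32, SE 0.41, adjusted p = 0.0288. In both genes the WT libraries at E13 were the ones that stood above the cKO libraries, and at P0 the cKO libraries were level with or above WT. The number of genes that passed was 0 without cKO E13 c0, cKO E13 c1, cKO P0 c2, WT E13 c0, WT P0 c0 or WT P0 c1, 1 (neither of these) without cKO P0 c1, and 3 without WT E13 c1. Neurod6, a factor of cortical neurons, rose by 4.01 under the cKO label and had an age difference of 1.18 in WT, but the difference between them did not pass (2.83, SE 0.57, adjusted p = 0.148). The snoRNA gene Snora28, called in opposite directions in cKO (4.11) and WT (-5.18), measured 0 FPKM in 1 of the 3 P0 libraries labelled cKO, its age call was lost without each library other than P0 c1 (3.03 to 4.11), and the difference did not pass either (adjusted p = 0.282).

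**Figure D5:**
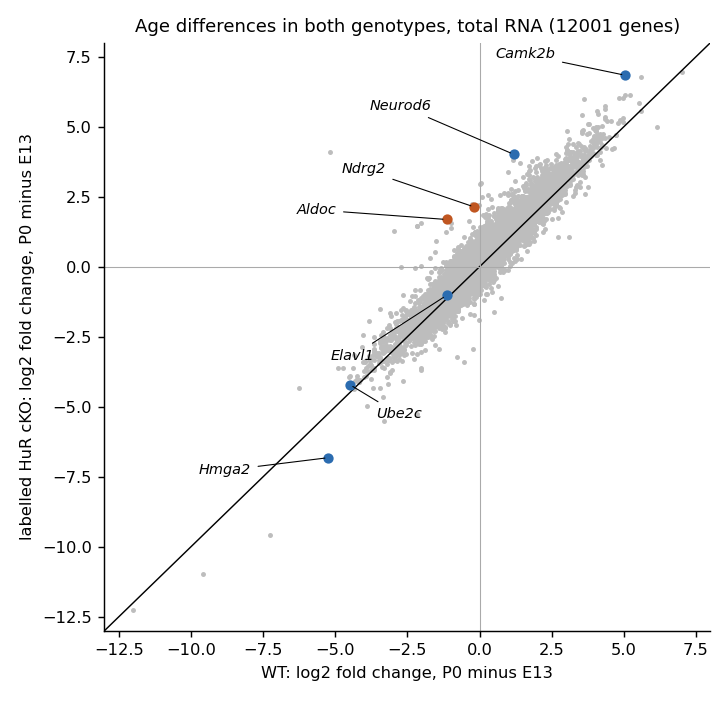
Log2 fold change (P0 minus E13) of 12001 genes in WT on the x axis and in the libraries labelled cKO on the y axis, with the line of equality. Most genes lie along the line from Hmga2 and the globins at the lower left to Camk2b at the upper right, and Aldoc and Ndrg2, the 2 genes whose difference passed the test, lie above it.

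Group by group, medians in the libraries labelled cKO and in WT had the same sign for replication and mitosis (-2.56 and -3.02), radial glia (-1.13 and -1.83), intermediate progenitors (-1.83 and -2.7), deep layers (2.05 and 1.25), upper layers (1.92 and 1.32), interneurons (1.81 and 1.81) and synaptic vesicles (3.16 and 2.41). For known HuR targets they were 0.20 and -0.32, for the BAF list 0.45 and -0.14, and over all genes 0.04 and -0.12. Among these lists the median difference between genotypes ran from 0.25 (interneurons) to 0.74 (intermediate progenitors). It was 0.49 for HuR targets and 0.17 over all genes. No member of these lists other than Aldoc passed the test of the difference between genotypes. For Elavl2 and Elavl4 the WT age differences were -0.05 and -0.05, and the differences between genotypes did not pass (1.11, SE 0.49, adjusted p = 0.781 and 1.1, SE 0.43, adjusted p = 0.761).

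Ribosome-bound RNA of the same genotype was used to ask whether the age difference in total RNA held there. Between polysome and total RNA no gene of 12302 passed the limma test of the difference, although 684 had an unadjusted p under 0.05, and the smallest adjusted p was 0.583. This test and the next took the fractions as independent, and whether they share lysates was not tested. Between monosome and total RNA 1 gene passed (0.00813%), Eef1a1, the elongation factor eEF1A1, and 1495 had an unadjusted p under 0.05. Eef1a1 measured 5486 and 7074 FPKM at E13 and 4485, 8553 and 8239.8 FPKM at P0 in total RNA, with overlapping ages. In monosome RNA it measured 15387, 12958 and 15649.9 FPKM at E13 and was listed at 0 in both P0 libraries. It was also listed at 0 in all 3 WT P0 monosome libraries, against 12066 and 22285 FPKM at E13. Whether these entries of 0 are measured or missing values was not tested. The age differences of polysome RNA beside those of total RNA were -4.74 and -4.21 for Ube2c, -7.56 and -6.82 for Hmga2, 6.57 and 6.84 for Camk2b, and 3.41 and 3.52 for Elavl3.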

How the data were processed

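Poly(A) RNA of neocortex was sequenced in 31 libraries, of which 5 (total RNA labelled cKO, 2 at E13 and 3 at P0) are described. Per the labels' protocols, the kit was TruSeq RNA v2, which does not keep strand, with paired reads. The authors deposited FPKM values in one table for the 16 libraries labelled cKO and another for the 15 WT libraries. The submitters' processing notes name TopHat2 2.0.6, Bowtie2 2.0.5.0, Cuffdiff and the builds mm10 and GRCm38, whereas no annotation or Cuffdiff version is named there. Of 23284 rows per table, 26 named by dates or bare numbers were left out.

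FPKM values plus 1 were log2-transformed and fitted with limma 3.58.1 (R 4.3.3), with an intensity trend, over genes with a mean of at least 1 FPKM in the libraries fitted. The cKO fit held 16 libraries in 6 groups (12302 genes, 10 residual degrees of freedom), so total RNA shared its estimate of spread with the other fractions, which were taken as independent. The genotype difference came from a joint fit of 31 libraries (12233 genes, 19 degrees of freedom). Tests were two-sided with Benjamini-Hochberg adjustment. The procedure was run on simulated data with independent normal noise in each library. That simulation held no library that stands apart, as P0 c0 does, and nothing shared between fractions. It therefore cannot give the error rate in these data. Of 1206 members of 48 gene lists, 1190 were matched by symbol, 12 by synonym and 4 not at all. The comparison and the lists were chosen with earlier results of these data known.

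The text names the Elavl family, up to 12 genes with the largest change in each direction (mean of at least 5 FPKM in the higher group, no overlap, no predicted or small RNA genes), genes at 0 in 1 age, genes called between genotypes or fractions, and of each described list up to 8 members in order of adjusted p with any that moved against it or did not pass. Ccnb2, Eomes, Eno1, Tuba1a, Snora28, Col4a1, Col4a2, Hspa5 and Hsp90b1 fall outside that rule and were named after their values were seen. Promoter windows are from RefSeq (GRCm38.p6). Alternatives were pseudocounts of 0.1 and 5 FPKM, a minimum of 5 FPKM, no filter, median ratio rescaling, no trend, array weights, the 5 libraries alone, leaving out each library, and, added after the data were seen, a block on the column number. Transcript lengths are the longest protein-coding transcript of a symbol in GENCODE vM21. Some genes that meet the rule are not reported here.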

Additional observations from a re-analysis of the deposited data

Results flagged for a closer look

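Aldoc was picked out because its age difference in total RNA differed between genotypes by 2.83 on the log2 scale (SE 0.49, adjusted p = 0.0288 by limma, cKO minus WT). It was higher at P0 in all 3 libraries labelled cKO and lower in all 3 WT libraries, each against both E13 libraries of its genotype. Over 16 alternatives the difference ran from 2.58 to 3.08 and the adjusted p from 0.00636 to 0.362.

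Ndrg2 was picked out on the same ground, with a difference of 2.32 (SE 0.41, adjusted p = 0.0288). Over the alternatives it ran from 2.07 to 2.56 and the adjusted p from 0.0142 to 0.405. No other gene passed this test.

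Eef1a1 was picked out because its age difference in monosome RNA was lower than that in total RNA (difference of -13.96, SE 0.44, adjusted p = 3.99e-13). It is listed at 0 in both P0 monosome libraries and measured 15387, 12958 and 15650 FPKM in those of E13. In WT it is likewise listed at 0 in all 3 P0 monosome libraries, against 12066 and 22285 FPKM at E13. The size of the difference and its adjusted p rest on these entries of 0. Whether they are measured or missing values was not tested.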

How the results depend on the processing

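No label ties a column number to a lysate, an animal or a day. Between cKO fractions of 1 age, libraries of the same number had correlated deviations from their group means in some pairs and opposed ones in others (r across genes from -0.33 to 0.37), so they were taken to share only a number. At E13, total c0 deviated with polysome c1 (r = 0.24) and monosome c1 (r = 0.33), libraries of another number. Xist measured 2.36, 1.89 and 2.86 FPKM in these libraries and at most 0.113 FPKM in the other E13 libraries labelled cKO. Ddx3y, of the Y chromosome, measured 0.0174, 0 and 0.0468 FPKM in them. Whether these libraries share a lysate was not tested, and a block on the number does not pair them. The tests between fractions took all libraries as independent. With a replicate block on the column number, chosen after seeing the data, 5873 genes changed with age in place of 6267, 2 differed between genotypes, 0 in the polysome and 2 in the monosome difference. The numbers of genes that rose or fell in total RNA labelled cKO stayed within 1.5 times of their values (3417 and 2850) under all 14 alternatives, from 2343 to 4149 higher and from 1906 to 3428 lower. The genotype difference called 2 genes, and 0 after median ratio rescaling, 0 without a filter and 3 with a pseudocount of 5 FPKM, with a range of 0 to 3 without one library each. The polysome difference called 0 genes and 1 without a filter. The monosome difference called 1 gene, 12 without a filter and 5 with a pseudocount of 5 FPKM, with a range of 1 to 3 without one library each. Of 260 results for single genes in the text, 230 kept direction and side of the threshold under every alternative, 26 crossed the threshold under at least 1, most often without E13 c0, and 4 changed sign. None of these 4 passed the test. Ctnnb1 was 0.041 with array weights and ran from -0.36 to 0.31 without one library each, Eef1a1 in total RNA from -0.054 to 0.43, Fezf2 from -0.031 to 0.45 and Slc12a2 from -0.089 to 0.59. The causes were not tested. With the depth unknown, small differences of genes near 0 FPKM cannot be weighed, and 2 libraries at E13 leave the call of many genes to the spread of the other groups.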

Other observations

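Of 6 sex-linked genes listed, 3 were tested between ages and none passed, but the libraries differed in them. Ddx3y, of the Y chromosome, measured 0.0174 and 3.29 FPKM at E13 and 15.8, 4.05 and 2.38 FPKM at P0, and Xist, which silences the second X chromosome in females and was too low to be tested, measured 2.36 and 0.113 FPKM at E13 and 0.0169, 0.0998 and 0.257 FPKM at P0. E13 c0 was thus the one library of the 5 with Xist above and Ddx3y below 1 FPKM.

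Genes of the ganglionic eminence and striatum, listed as a check of the dissection, rose in 5 of 11 tested cases and fell in 1, with summed levels of 42.6 and 68.7 FPKM at E13 and 117, 121 and 127 FPKM at P0. Choroid plexus genes summed to 345 and 92.4 FPKM at E13 and 462, 376 and 263 FPKM at P0, with 1 of 7 tested genes higher and 2 lower. The counts of both lists stand beside 27.8% higher and 23.2% lower of all genes tested.

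Activity-dependent genes rose in 6 of 11 tested cases and fell in 2, and genes of apoptosis rose in 4 and fell in 8 of 27 (10 fell without P0 c0). Among all genes tested, 27.8% were higher and 23.2% lower at P0, and 21.4% were lower without P0 c0.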
